A study of Homo sapiens with 24 samples.

Results

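SKBR3 cells treated with an siRNA against TFAP2C (called siAP2C cells here) were compared with SKBR3 cells treated with a control siRNA (siNT cells). SKBR3 is an established human breast carcinoma line with extra copies of ERBB2, the gene of the HER2 receptor. The comparison covers 6 samples, 3 siAP2C and 3 siNT, of a series of 24 samples in 8 groups, made to find genes through which AP-2gamma acts on growth and invasion of HER2-positive lines. Per the labels, siAP2C cells received 1 siRNA against TFAP2C and siNT cells Negative control siRNA#2. Lipofectamine RNAiMAX was the carrier in both groups, and the cells were taken 72 to 96 h later. Since a single siRNA was used, its effects on other transcripts cannot be told apart from those of lower TFAP2C. The submitters state that they did not authenticate the line. Whether the 3 samples per group were separate cultures is not stated in the labels, so p-values measure the spread among these samples alone, which may be technical.

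The authors' deposited table gives 1 value per RefSeq transcript accession and group, with the 3 samples of a group pooled. Values are in FPKM (mapped fragments scaled for transcript length and library total), and no spread between samples can be given for them. The depth of the libraries is unknown. Of 66321 accessions, 15184 had a completed test. Accessions were joined to 27431 gene symbols, of which 10046 had at least 1 tested accession, and the level of a gene is the FPKM summed over its tested accessions. A gene was called where its leading accession, the one with the highest mean FPKM, had a q-value (the p-value adjusted for multiple tests) under 0.05 in the authors' deposited table and moved the same way as the sum. Rose, fell, higher and lower are used of called genes alone, and for other genes both levels are given. A log2 ratio is that of summed FPKM in siAP2C cells over siNT cells, so it is above 0 where siAP2C cells were higher.

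AP-2gamma, the protein of TFAP2C, is a transcription factor of the AP-2 family, whose members bind DNA as dimers at a GC-rich palindrome. In normal tissue it acts in placenta, skin and the developing mammary epithelium. In breast cancer it is known as an activator of ERBB2 in HER2-positive cells and of the luminal programme in hormone-responsive cells.

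The palindrome usually written for AP-2 proteins, GCCNNNGGC, reads the same on both strands and was searched in the RefSeq promoters (GRCh38.p14) of the tested genes, from 250 bases before to 50 bases after the start. It was present in 35.7% of 1677 promoters of genes called lower, in 35.5% of 981 promoters of genes called higher, in 31.4% of 5399 promoters of tested genes not called, in 32.8% of all 8057 promoters of tested genes and in 23.0% of 27305 promoters of the whole table. Median GC content was 66.3% for genes called lower, 66.7% for genes called higher, 65.7% for all tested genes and 58.3% for the whole table. The shares for genes called lower and called higher thus lay close together. Of the 20 largest falls and the 20 largest rises described below, 15 each had a promoter in the table, and 5 of each 15 held the palindrome. A gene that fell and a gene that rose are shown, with the matches in capitals. The S100A7 promoter lies at chr1:153460602-153460901 on the minus strand and that of TMC4 at chr19:54173111-54173410 on the minus strand.
S100A7: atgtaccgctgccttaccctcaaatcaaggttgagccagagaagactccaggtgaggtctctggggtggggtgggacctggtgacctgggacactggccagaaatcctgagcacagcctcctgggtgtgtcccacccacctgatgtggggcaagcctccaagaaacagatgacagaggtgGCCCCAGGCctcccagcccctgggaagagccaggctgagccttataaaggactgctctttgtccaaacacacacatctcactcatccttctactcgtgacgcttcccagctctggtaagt
TMC4: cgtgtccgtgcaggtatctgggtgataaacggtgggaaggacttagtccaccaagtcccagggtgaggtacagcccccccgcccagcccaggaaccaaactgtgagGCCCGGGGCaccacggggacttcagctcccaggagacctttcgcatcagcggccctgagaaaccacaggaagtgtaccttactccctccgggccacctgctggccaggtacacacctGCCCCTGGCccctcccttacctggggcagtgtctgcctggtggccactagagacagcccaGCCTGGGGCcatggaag
The S100A7 promoter has 1 match and the TMC4 promoter 3. A match describes these letters only and is not a binding site.

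TFAP2C itself (chr20:55204362-55214339, plus strand, GRCh37) fell to 53.9 FPKM in siAP2C cells, against 157 FPKM in siNT cells, a log2 ratio of -1.55 with q = 4.41e-04 in the authors' deposited table. That was a 2.92-fold fall, so part of the message was still present in siAP2C cells. TFAP2A, the gene of the related AP-2alpha, was listed at 27.8 FPKM in siAP2C cells and 23.8 FPKM in siNT cells and was not called. The other 3 AP-2 genes, TFAP2B, TFAP2D and TFAP2E, had no tested accession, and over all their accessions they were listed at 0.367, 0 and 0.180 FPKM in siAP2C cells, against 0.584, 0 and 0.284 FPKM in siNT cells. Of 8 tested genes of this family and its partners, TFAP2C included, 3 fell and 1 rose, where 20.7% of all genes tested fell and 12.5% rose. Among the partners, CITED2, a transcriptional coactivator that binds AP-2, fell to 59.7 FPKM in siAP2C cells, against 84.0 FPKM in siNT cells. KCTD1, which inhibits AP-2 activity, fell to 3.12 FPKM in siAP2C cells, against 6.37 FPKM in siNT cells. KDM5B, a histone demethylase that acts with AP-2gamma, rose to 11.6 FPKM in siAP2C cells, against 7.22 FPKM in siNT cells. KCTD15, a relative of KCTD1, was at 13.5 FPKM in siAP2C cells and 28.9 FPKM in siNT cells and was not called, and CITED4 was at 82.6 FPKM in siAP2C cells and 83.4 FPKM in siNT cells.

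Markers of the line were checked next. Of 8 markers of a HER2-positive luminal line 7 were tested, and their summed level was 6364 FPKM in siAP2C cells and 7722 FPKM in siNT cells. CDH1, the gene of E-cadherin, was the exception, with 0.0970 FPKM in siAP2C cells and 0.0894 FPKM in siNT cells. None of the 3 hormone receptor, 4 basal, 3 mesenchymal, 3 fibroblast or 3 leukocyte markers was tested, and their sums were 2.65, 1.28, 0.134, 0.523 and 2.19 FPKM in siAP2C cells and 1.32, 2.49, 0.0291, 0.546 and 0.324 FPKM in siNT cells. DCN and PGR were listed at 0 in both groups. The endothelial sum of 29.2 FPKM in siAP2C cells and 10.98 FPKM in siNT cells came almost wholly from CDH5, the VE-cadherin gene, which rose to 29.2 FPKM in siAP2C cells, against 10.8 FPKM in siNT cells. The other endothelial markers, PECAM1 and VWF, were at 0.0281 and 0.0478 FPKM in siAP2C cells and 0.0131 and 0.142 FPKM in siNT cells.

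ERBB2 (chr17:37844167-37886679, plus strand, GRCh37) fell to 609 FPKM in siAP2C cells, against 1109 FPKM in siNT cells, with a log2 ratio of -0.86 and q = 8.23e-04 in the authors' deposited table. ERBB3, its signalling partner, rose to 62.7 FPKM in siAP2C cells, against 51.8 FPKM in siNT cells. EGFR was listed at 39.3 FPKM in siAP2C cells and 27.3 FPKM in siNT cells, without a call, and ERBB4 was untested at 0.0122 FPKM in siAP2C cells and 0.0274 FPKM in siNT cells. ERRFI1, a feedback inhibitor of these receptors, rose to 40.2 FPKM in siAP2C cells, against 16.6 FPKM in siNT cells. LRIG1, a membrane protein that lowers receptor levels, fell to 3.94 FPKM in siAP2C cells, against 7.04 FPKM in siNT cells. The ligand gene EGF rose to 2.94 FPKM in siAP2C cells, against 1.61 FPKM in siNT cells. In all, 3 of the 6 tested genes of ERBB receptors, ligands and regulators rose and 2 fell. Of 12 tested genes at or near ERBB2 on 17q12, ERBB2 included, 2 fell and 1 rose. Those are 16.7% and 8.33%, against 20.7% and 12.5% of all genes. Their median log2 ratio of -0.09 turned to 0.02 when FPKM was rescaled to the same total in both groups. MED24, a Mediator subunit, fell to 58.9 FPKM in siAP2C cells, against 71.2 FPKM in siNT cells, and ORMDL3, a regulator of sphingolipid synthesis, rose to 184 FPKM in siAP2C cells, against 129.7 FPKM in siNT cells. GRB7, an adaptor that binds HER2 and is amplified with it, was at 110.2 FPKM in siAP2C cells and 120.3 FPKM in siNT cells and was not called. The neighbours PGAP3 and MIEN1 share annotated sequence with ERBB2, and no source used here says that counting used strand, so reads from the shared stretches cannot be told apart.

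Over all 10046 genes tested, 33.1% were called: 12.5% (1254) rose and 20.7% (2075) fell. Changes were mostly small. The median fold was 1.48 among genes that rose and 1.46 among genes that fell, and 252 rose and 289 fell at least 2-fold. The median log2 ratio of all tested genes was -0.09. Summed over all accessions, the table held 415564 FPKM in siAP2C cells and 450509 FPKM in siNT cells, and rescaling both to the same total added 0.12 to every log2 ratio, moving the median to 0.02 and changing the sign of 7 called genes. Medians of lists are to be read against the -0.09 of all genes. Falls were more frequent among abundant genes. In 4 equal bins of genes ordered from low to high mean level, 15.4%, 15.9%, 20.7% and 30.7% fell, while 11.3%, 12.1%, 12.9% and 13.7% rose.

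**Figure D1:**
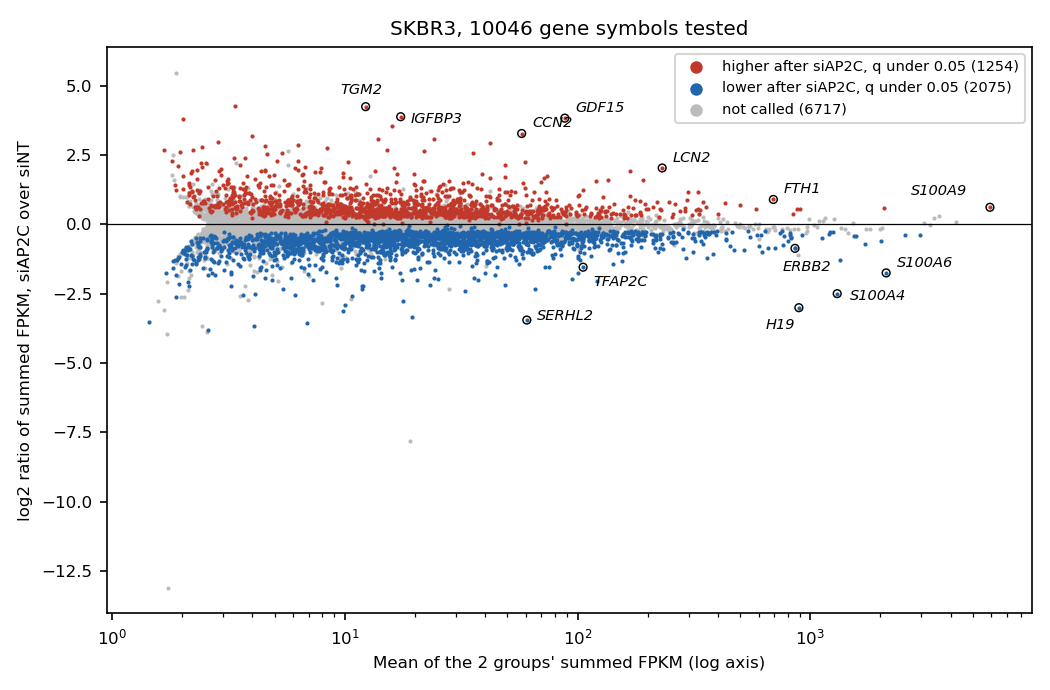
Log2 ratio of summed FPKM, siAP2C over siNT (vertical axis), against the mean level of the 2 groups (horizontal log axis, FPKM) for 10046 gene symbols. Red points are the 1254 genes called higher, blue points the 2075 called lower and grey points those not called, and blue points crowd below 0 at high levels, where 30.7% of the most abundant of 4 equal bins fell.

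The largest rises were in genes of quite different functions. TGM2, a transglutaminase that cross-links proteins, rose to 23.4 FPKM in siAP2C cells, against 1.23 FPKM in siNT cells. Its leading accession held 37.0% of the sum and had q = 0.0225 in the authors' deposited table. This rise thus did not hold at q under 0.01. Next came IGFBP3, which binds insulin-like growth factors, with 32.6 FPKM in siAP2C cells, against 2.21 FPKM in siNT cells. GDF15, a stress-induced cytokine, reached 165 FPKM in siAP2C cells, against 11.6 FPKM in siNT cells. The long non-coding RNA UCA1 had 29.3 FPKM in siAP2C cells, against 2.51 FPKM in siNT cells. ACHE, the acetylcholinesterase gene, rose to 24.8 FPKM in siAP2C cells, against 2.90 FPKM in siNT cells, and TMC4, of the transmembrane channel-like family, to 11.1 FPKM in siAP2C cells, against 1.53 FPKM in siNT cells. CAV1, the coat protein of caveolae, had 10.4 FPKM in siAP2C cells, against 2.16 FPKM in siNT cells. The cell adhesion molecule CEACAM6 had 79.3 FPKM in siAP2C cells, against 18.2 FPKM in siNT cells, and ADGRF1, an adhesion G protein-coupled receptor, 37.9 FPKM in siAP2C cells, against 6.004 FPKM in siNT cells. Rises of NRAD1, a non-coding RNA, to 9.20 FPKM in siAP2C cells, against 1.53 FPKM in siNT cells, and of TNNC1, a troponin C of slow muscle, to 10.9 FPKM in siAP2C cells, against 2.59 FPKM in siNT cells, were also among the first 20.

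The largest falls were led by IGFL1, a secreted protein of the IGF-like family, with 1.08 FPKM in siAP2C cells, against 12.7 FPKM in siNT cells. SERHL2, a serine hydrolase-like gene, fell to 10.1 FPKM in siAP2C cells, against 111 FPKM in siNT cells, and its neighbour SERHL to 3.49 FPKM in siAP2C cells, against 35.3 FPKM in siNT cells. Those are near-identical copies between which reads can be split, so neither value is certain. H19, an imprinted long non-coding RNA, fell to 198 FPKM in siAP2C cells, against 1588 FPKM in siNT cells, and TARP, a transcript of the T-cell receptor gamma locus made in prostate and breast cells, to 2.35 FPKM in siAP2C cells, against 17.8 FPKM in siNT cells. CRAT, which exchanges carnitine for coenzyme A on short acyl groups, had 1.77 FPKM in siAP2C cells, against 10.4 FPKM in siNT cells. BMP7, a bone morphogenetic protein, fell to 21.6 FPKM in siAP2C cells, against 110.0 FPKM in siNT cells. CKB, the brain-type creatine kinase, had 3.35 FPKM in siAP2C cells, against 15.1 FPKM in siNT cells, PLP2, a membrane protein of the endoplasmic reticulum, 17.7 FPKM in siAP2C cells, against 79.7 FPKM in siNT cells, and CYP1A1, the cytochrome P450 induced through the aryl hydrocarbon receptor, 47.8 FPKM in siAP2C cells, against 195.1 FPKM in siNT cells. SRARP, a regulator of steroid receptors, fell to 8.33 FPKM in siAP2C cells, against 38.0 FPKM in siNT cells, and ATP6V1B1, a proton pump subunit, to 4.19 FPKM in siAP2C cells, against 19.8 FPKM in siNT cells.

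**Figure D2:**
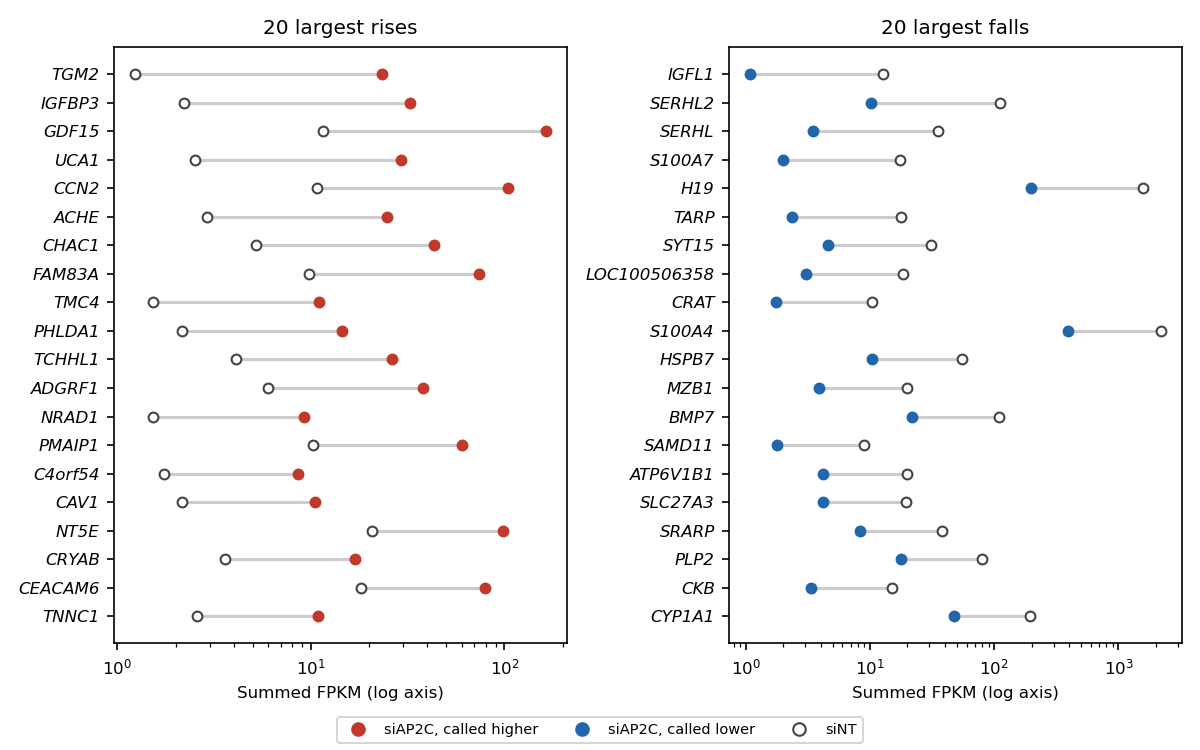
Summed FPKM (horizontal log axis) of the 20 largest rises (left) and 20 largest falls (right) by log2 ratio, among called genes with a mean of at least 5 FPKM. Filled points are siAP2C and open points siNT, 1 pooled value per group, so that TGM2 stands at 23.4 FPKM in siAP2C cells and 1.23 FPKM in siNT cells, and IGFL1 at 1.08 FPKM in siAP2C cells and 12.7 FPKM in siNT cells.

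In FPKM units the largest gains and losses were in abundant genes. S100A9, a subunit of calprotectin, rose to 7152 FPKM in siAP2C cells, against 4667 FPKM in siNT cells, the largest gain. The surface glycoprotein CD24 had 2501 FPKM in siAP2C cells, against 1664 FPKM in siNT cells. The largest loss was that of S100A6, with 969.6 FPKM in siAP2C cells, against 3263 FPKM in siNT cells, followed by S100A4, with 392.2 FPKM in siAP2C cells, against 2216 FPKM in siNT cells. DHRS2, a mitochondrial dehydrogenase/reductase, fell to 779.6 FPKM in siAP2C cells, against 1895 FPKM in siNT cells. RPS14P3, RPSA2 and RNA5-8SN4 also were among the 10 largest losses, but these are copies of ribosomal genes whose reads cannot be assigned to 1 copy.

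Most genes of cell division fell. Of 60 genes of a G2/M and mitosis list 59 were tested, and 47 (79.7%, against 20.7% of all genes tested) fell while 0 rose, with a median log2 ratio of -0.66. CDC25B, the phosphatase that starts mitosis by activating CDK1, fell to 47.0 FPKM in siAP2C cells, against 110.2 FPKM in siNT cells. The mitotic kinase AURKA had 41.9 FPKM in siAP2C cells, against 87.3 FPKM in siNT cells, and AURKB, the kinase of the chromosomal passenger complex, 4.79 FPKM in siAP2C cells, against 11.1 FPKM in siNT cells. NUF2, a kinetochore subunit, fell to 3.82 FPKM in siAP2C cells, against 7.56 FPKM in siNT cells, and CCNF, cyclin F, to 9.91 FPKM in siAP2C cells, against 19.4 FPKM in siNT cells. FOXM1, the transcription factor of many G2/M genes, was at 28.7 FPKM in siAP2C cells and 52.3 FPKM in siNT cells, a log2 ratio of -0.87, without a call. The range in the list ran down to -1.23 and up to 0.09, the value of SKA1, a spindle protein that was not called. In bulk samples like these, fewer cells of a type (here, fewer cells in division) and less RNA per cell cannot be told apart.

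The promoters of this list were set beside the element TTTGAA, searched on both strands and known from genes that are repressed outside G2 and M. It was found in 28 of the 43 promoters available for members that fell and in 8 of the 9 for tested members that did not fall, against 9.47% of all 8057 promoters of tested genes. It thus goes with the list and does not mark the members that fell, and it was chosen with the values known. DLGAP5, a spindle protein that fell to 3.55 FPKM in siAP2C cells, against 7.77 FPKM in siNT cells, is shown because its promoter (RefSeq, GRCh38.p14, chr14:55191536-55191835, minus strand) holds 3 matches, in capitals.
DLGAP5: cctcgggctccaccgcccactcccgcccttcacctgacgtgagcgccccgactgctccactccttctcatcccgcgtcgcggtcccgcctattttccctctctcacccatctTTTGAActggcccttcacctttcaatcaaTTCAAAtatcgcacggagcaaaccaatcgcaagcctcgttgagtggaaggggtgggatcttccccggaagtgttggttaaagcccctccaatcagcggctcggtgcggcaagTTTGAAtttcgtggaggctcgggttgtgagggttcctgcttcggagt

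In the DNA replication and G1/S list 36 of 59 tested genes fell and 2 rose, with a median log2 ratio of -0.61. GINS1, a subunit of the replicative helicase, fell to 15.9 FPKM in siAP2C cells, against 37.3 FPKM in siNT cells, and POLD1, the catalytic subunit of DNA polymerase delta, to 3.46 FPKM in siAP2C cells, against 7.38 FPKM in siNT cells. RRM2, the small subunit of ribonucleotide reductase, had 37.1 FPKM in siAP2C cells, against 78.0 FPKM in siNT cells. E2F1, a transcription factor that drives entry into S phase, fell to 11.6 FPKM in siAP2C cells, against 21.3 FPKM in siNT cells. E2F8, a repressor of the same family, fell to 1.54 FPKM in siAP2C cells, against 3.96 FPKM in siNT cells. The 2 that rose were CCND1, cyclin D1, with 156 FPKM in siAP2C cells, against 112 FPKM in siNT cells, and CHAF1B, a chromatin assembly subunit, with 17.4 FPKM in siAP2C cells, against 13.8 FPKM in siNT cells. MYC, with 76.2 FPKM in siAP2C cells and 81.1 FPKM in siNT cells, was not called. Of 10 tested CDK inhibitors and RB family genes, 3 fell and 1 rose, or 30% and 10%, against 20.7% and 12.5% of all genes. CDKN2B, the inhibitor p15, rose to 26.2 FPKM in siAP2C cells, against 6.45 FPKM in siNT cells, whereas CDKN1A, the inhibitor p21, was at 3.21 FPKM in siAP2C cells and 4.01 FPKM in siNT cells and CDKN1B, p27, at 37.9 FPKM in siAP2C cells and 31.9 FPKM in siNT cells, neither called. RBL1, the RB relative p107, fell to 4.63 FPKM in siAP2C cells, against 7.20 FPKM in siNT cells.

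DNA repair genes fell in 13 of 28 cases and rose in 2, with a median of -0.53, and 7 fell and 0 rose at q under 0.01 in the authors' deposited table. BRCA1, a scaffold of homologous repair, fell to 1.30 FPKM in siAP2C cells, against 3.19 FPKM in siNT cells. PARP1, which marks DNA breaks, had 23.7 FPKM in siAP2C cells, against 46.1 FPKM in siNT cells. RAD50 and NBN, both of the complex that senses double-strand breaks, rose, to 8.59 and 134 FPKM in siAP2C cells, against 6.81 and 109 FPKM in siNT cells. MRE11, the third member of that complex, was at 4.42 FPKM in siAP2C cells and 4.34 FPKM in siNT cells and was not called. Of 11 tested tubulin-list genes 7 fell and 0 rose, with a median of -0.63. TUBA1B, the most abundant of them, had 504 FPKM in siAP2C cells, against 909 FPKM in siNT cells, and STMN1, which destabilises microtubules, 91.1 FPKM in siAP2C cells, against 155 FPKM in siNT cells. Tubulin genes are close copies, and reads may be split between them.

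Nuclear genes of the respiratory chain fell in every complex. Of 75 tested genes of complexes I to IV and ATP synthase, 56 fell and 0 rose, where 20.7% of all genes tested fell and 12.5% rose. The median log2 ratio of the 75 was -0.51 and their highest value 0.15. Falls were called in 26 of 37 genes of complex I, 3 of 4 of complex II, 8 of 8 of complex III, 8 of 10 of complex IV and 11 of 16 of ATP synthase. In complex I, which takes electrons from NADH, NDUFS7 fell to 18.6 FPKM in siAP2C cells, against 37.2 FPKM in siNT cells, and NDUFS8 to 29.9 FPKM in siAP2C cells, against 51.3 FPKM in siNT cells. SDHA, the catalytic subunit of complex II, had 40.4 FPKM in siAP2C cells, against 65.6 FPKM in siNT cells. UQCRQ, a small subunit of complex III, had 20.9 FPKM in siAP2C cells, against 36.1 FPKM in siNT cells, and its core subunit UQCRC1 50.9 FPKM in siAP2C cells, against 78.2 FPKM in siNT cells. COX8A, of cytochrome c oxidase, had 323 FPKM in siAP2C cells, against 619.6 FPKM in siNT cells. ATP5F1B, the catalytic beta subunit of ATP synthase, had 361 FPKM in siAP2C cells, against 681 FPKM in siNT cells. NDUFV2, at 15.3 FPKM in siAP2C cells and 13.8 FPKM in siNT cells, COX5A, at 47.2 FPKM in siAP2C cells and 46.3 FPKM in siNT cells, and ATP5ME, at 14.02 FPKM in siAP2C cells and 14.01 FPKM in siNT cells, were the members with a log2 ratio above 0, and none of them was called.

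**Figure D3:**
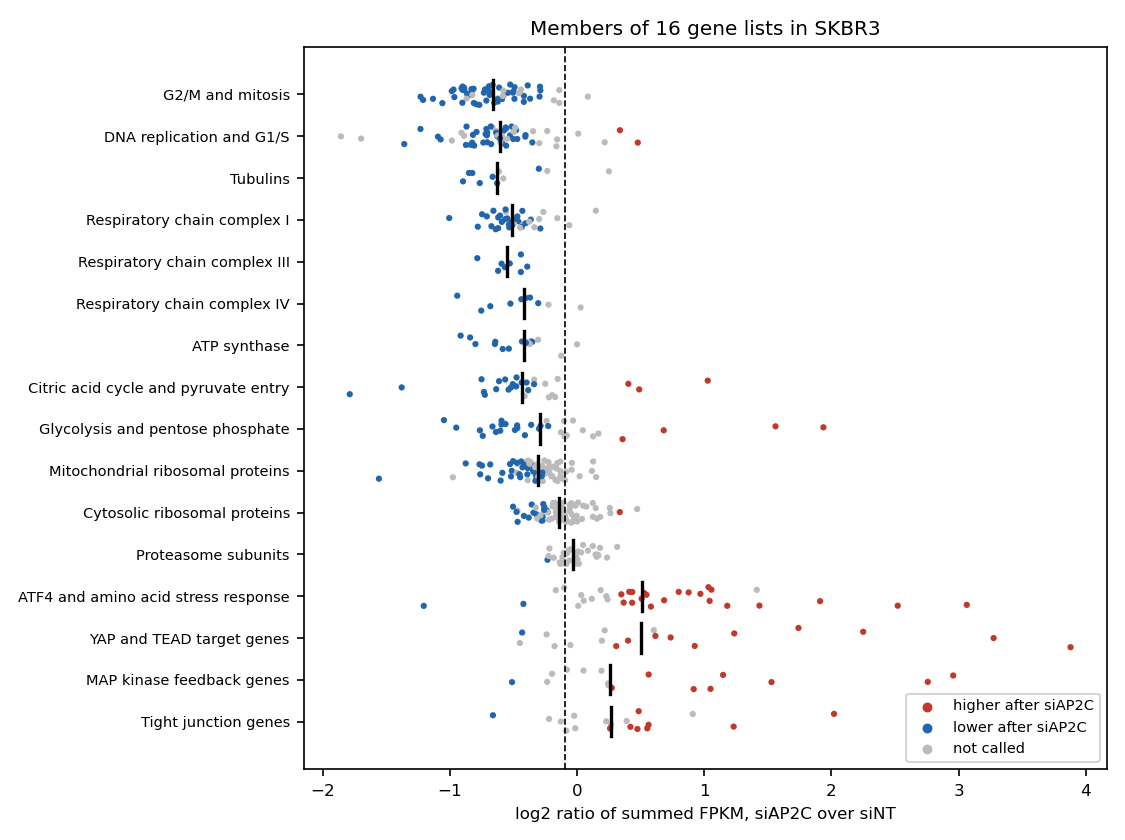
Log2 ratio of summed FPKM, siAP2C over siNT (horizontal axis), of each tested member of 16 gene lists, with 1 point per gene (red called higher, blue called lower, grey not called), a bar at the list's median and a dashed line at -0.09, the median of all tested genes. Mitosis, replication and respiratory chain genes lie mostly below -0.09, ATF4 and YAP target genes mostly above it, and proteasome genes around it.

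Enzymes that feed the chain fell more often than they rose. Among 27 tested genes of the citric acid cycle and pyruvate entry, 17 (63.0%, against 20.7% of all genes) fell and 3 rose. The median of the list was -0.43. PC, pyruvate carboxylase, fell to 1.45 FPKM in siAP2C cells, against 5.02 FPKM in siNT cells, and MPC1, a subunit of the mitochondrial pyruvate carrier, to 22.7 FPKM in siAP2C cells, against 59.0 FPKM in siNT cells. PDK4, a kinase that switches off pyruvate dehydrogenase, rose to 18.9 FPKM in siAP2C cells, against 9.29 FPKM in siNT cells. The cytosolic isocitrate dehydrogenase IDH1 and the malic enzyme ME1 rose as well, to 75.5 and 32.3 FPKM in siAP2C cells, against 53.8 and 24.4 FPKM in siNT cells. Of 24 fatty acid oxidation genes 12 fell and 3 rose, with a median of -0.30. ECHS1, the enoyl-CoA hydratase, had 51.8 FPKM in siAP2C cells, against 86.8 FPKM in siNT cells, and ACADM, the medium-chain acyl-CoA dehydrogenase, rose to 64.6 FPKM in siAP2C cells, against 41.2 FPKM in siNT cells. PPARA, a nuclear receptor that drives this pathway, rose to 3.04 FPKM in siAP2C cells, against 1.37 FPKM in siNT cells, but its log2 ratio of 1.15 was 0.24 with untested accessions added.

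Glycolysis and pentose phosphate genes mostly fell. Of 32 tested, 18 fell and 4 rose, with a median of -0.29. SLC2A1, the main glucose transporter, fell to 73.6 FPKM in siAP2C cells, against 125 FPKM in siNT cells, GPI, the isomerase of the second step, to 64.1 FPKM in siAP2C cells, against 107 FPKM in siNT cells, and GAPDH to 1609.5 FPKM in siAP2C cells, against 2429 FPKM in siNT cells. LDHA, which makes lactate, had 196 FPKM in siAP2C cells, against 305 FPKM in siNT cells. PFKFB3, which makes the activator of phosphofructokinase, rose to 42.0 FPKM in siAP2C cells, against 14.2 FPKM in siNT cells. In the pentose phosphate branch, PGD and TALDO1 rose, to 77.1 and 178 FPKM in siAP2C cells, against 48.1 and 139 FPKM in siNT cells, while RPIA, the ribose isomerase, fell to 7.61 FPKM in siAP2C cells, against 15.7 FPKM in siNT cells. Of 25 hypoxia response genes 7 rose and 4 fell, or 28% and 16%, against 12.5% and 20.7% of all genes. ADM, adrenomedullin, had 28.7 FPKM in siAP2C cells, against 13.6 FPKM in siNT cells, VEGFA, the endothelial growth factor, rose to 43.5 FPKM in siAP2C cells, against 32.2 FPKM in siNT cells, and NDRG1, induced by stress and differentiation, fell to 89.5 FPKM in siAP2C cells, against 221 FPKM in siNT cells.

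In lipid synthesis the fatty acid branch had 6 falls and 0 rises among 23 tested genes, with a median of -0.23. SCD, the stearoyl-CoA desaturase, fell to 149.6 FPKM in siAP2C cells, against 295 FPKM in siNT cells, FASN, fatty acid synthase, to 261 FPKM in siAP2C cells, against 429.8 FPKM in siNT cells, and SREBF1, the transcription factor of this pathway, to 87.0 FPKM in siAP2C cells, against 151 FPKM in siNT cells. Of 28 cholesterol genes 4 fell and 3 rose, or 14.3% and 10.7%, against 20.7% and 12.5% of all genes. EBP, a sterol isomerase, fell to 30.3 FPKM in siAP2C cells, against 58.9 FPKM in siNT cells, and NPC1, which exports cholesterol from lysosomes, rose to 30.4 FPKM in siAP2C cells, against 21.6 FPKM in siNT cells. Nucleotide synthesis genes fell in 14 of 25 cases and 1 rose, with IMPDH1, of guanine nucleotide synthesis, at 68.2 FPKM in siAP2C cells, against 137 FPKM in siNT cells, and PRPS1, which makes the ribose precursor, at 18.5 FPKM in siAP2C cells, against 35.4 FPKM in siNT cells.

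Genes of protein synthesis and turnover were called in varying shares. Of 77 mitochondrial ribosomal protein genes 31 fell and 0 rose, with a median of -0.31, and 18 fell at q under 0.01 in the authors' deposited table. MRPL16 was among the falls, with 36.9 FPKM in siAP2C cells, against 62.8 FPKM in siNT cells. Of 78 cytosolic ribosomal protein genes 17 fell, or 21.8% against 20.7% of all genes, and 1 rose, with a median of -0.14. RPL15 had 684 FPKM in siAP2C cells, against 969 FPKM in siNT cells, and RPL24, the one that rose, 79.1 FPKM in siAP2C cells, against 62.6 FPKM in siNT cells. Ribosomal proteins have many processed copies in the genome, so their levels are uncertain. Of 32 ribosome assembly genes 7 fell, or 21.9%, near the 20.7% of all genes, and 0 rose. Among 39 spliceosome genes 12 fell, or 30.8%, against 20.7% of all genes and 30.7% of the most abundant bin. Only 1 was called higher. That 1 was SRSF6, a splicing regulator at 89.8 FPKM in siAP2C cells, against 87.9 FPKM in siNT cells, whose 2 accessions were called in opposite directions in the authors' deposited table, so its direction is uncertain. SF3A3, of the U2 particle, had 5.56 FPKM in siAP2C cells, against 10.5 FPKM in siNT cells. Proteasome subunits were the least changed of these lists: 1 of 34 fell, PSMA7, with 156 FPKM in siAP2C cells, against 184 FPKM in siNT cells, 0 rose, and the median of -0.03 was 0.09 after rescaling. The q of PSMA7 was 0.0474 in the authors' deposited table.

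**Figure D4:**
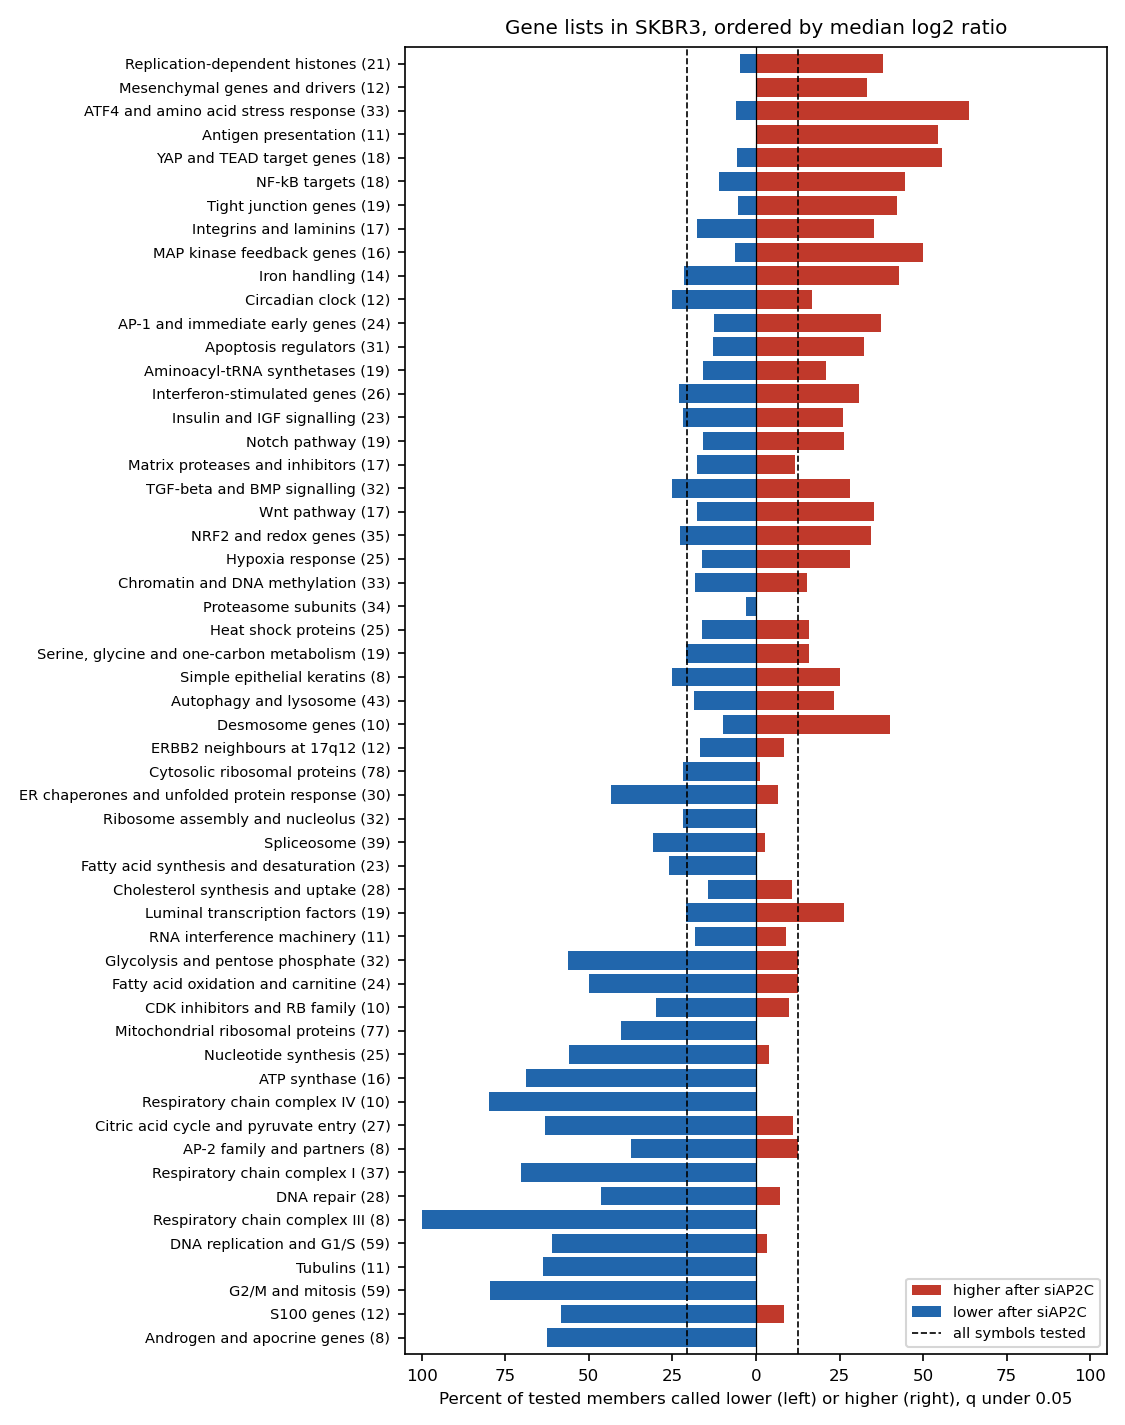
Percent of tested members called lower (blue, to the left) and higher (red, to the right) after siAP2C in gene lists with at least 8 tested members, ordered by median log2 ratio, with the number tested in brackets. Dashed lines mark the 20.7% called lower and 12.5% called higher among all genes, which the division and respiratory chain lists exceed on the left and the ATF4 and YAP lists on the right.

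Genes of the amino acid stress response rose in numbers. ATF4 is a transcription factor made when amino acids run short or translation is held back by phosphorylated eIF2alpha. Of 33 tested genes of its list 21 (63.6%, against 12.5% of all genes tested) rose and 2 fell, with a median of 0.51. CHAC1, which breaks down glutathione, rose to 43.4 FPKM in siAP2C cells, against 5.19 FPKM in siNT cells, and SLC7A11, the cystine transporter, to 7.92 FPKM in siAP2C cells, against 1.38 FPKM in siNT cells. NUPR1, a stress-induced nuclear protein, had 266 FPKM in siAP2C cells, against 70.7 FPKM in siNT cells, and CBS, of the transsulfuration pathway, 7.07 FPKM in siAP2C cells, against 2.62 FPKM in siNT cells. ASNS, asparagine synthetase, rose to 46.1 FPKM in siAP2C cells, against 22.2 FPKM in siNT cells, and the transcription factor ATF3 to 69.1 FPKM in siAP2C cells, against 30.5 FPKM in siNT cells. DDIT3, the gene of CHOP, was at 39.3 FPKM in siAP2C cells and 14.8 FPKM in siNT cells. That is the direction of the rises, but DDIT3 was not called. The list held 2 falls. SLC1A4, a transporter of neutral amino acids, fell to 3.31 FPKM in siAP2C cells, against 7.63 FPKM in siNT cells. SLC7A5, the leucine transporter, fell to 183 FPKM in siAP2C cells, against 245 FPKM in siNT cells.

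The composite element that ATF4 binds with its partners, TGATGNAA (TTNCATCA on the other strand), was found in 4 of the 17 promoters available for members that rose (ATF3, CHAC1, ASNS and SLC7A1) and in 1 of the 8 for the other tested members, against 1.46% of all 8057 promoters of tested genes. It was chosen with the values known. The promoter of CHAC1 (RefSeq, GRCh38.p14, chr15:40953221-40953520, plus strand) is shown because it had the largest rise in the list, with its 1 match, on the other strand, in capitals.
CHAC1: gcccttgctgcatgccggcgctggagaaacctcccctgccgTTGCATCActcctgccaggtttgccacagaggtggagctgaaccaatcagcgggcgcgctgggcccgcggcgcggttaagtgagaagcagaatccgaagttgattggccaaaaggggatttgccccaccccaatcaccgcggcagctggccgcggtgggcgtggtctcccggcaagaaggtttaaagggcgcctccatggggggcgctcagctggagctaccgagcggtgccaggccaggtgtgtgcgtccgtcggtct

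Serine synthesis, which ATF4 also drives, had PHGDH, its first enzyme, at 28.7 FPKM in siAP2C cells, against 14.6 FPKM in siNT cells, and PSAT1, the aminotransferase of the second step, at 43.6 FPKM in siAP2C cells, against 27.1 FPKM in siNT cells. In the list of serine, glycine and one-carbon metabolism 3 of 19 rose and 4 fell. Those are 15.8% and 21.1%, near the 12.5% and 20.7% of all genes. The list's median of -0.08 was 0.04 after rescaling. The enzymes that fell included SHMT1, the cytosolic hydroxymethyltransferase, with 3.17 FPKM in siAP2C cells, against 6.81 FPKM in siNT cells, and TYMS, thymidylate synthase, with 31.0 FPKM in siAP2C cells, against 55.4 FPKM in siNT cells. Of 19 aminoacyl-tRNA synthetases 4 rose and 3 fell, GARS1, for glycine, with 99.99 FPKM in siAP2C cells, against 62.9 FPKM in siNT cells, and HARS1, for histidine, with 22.5 FPKM in siAP2C cells, against 35.9 FPKM in siNT cells.

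Chaperones of the endoplasmic reticulum moved the other way, with 13 of 30 lower, 2 higher and a median of -0.21. HYOU1, a large chaperone of that compartment, fell to 34.4 FPKM in siAP2C cells, against 65.6 FPKM in siNT cells, DNAJB11, a co-chaperone, to 39.6 FPKM in siAP2C cells, against 76.7 FPKM in siNT cells, and XBP1, the transcription factor of the unfolded protein response that is also a luminal gene, to 468 FPKM in siAP2C cells, against 848 FPKM in siNT cells. ERN1, the gene of the sensor IRE1alpha that splices XBP1, rose to 13.1 FPKM in siAP2C cells, against 6.30 FPKM in siNT cells. Of 25 heat shock proteins 4 rose and 4 fell, or 16.0% each, against 12.5% and 20.7% of all genes. The median of this list, -0.07, was 0.04 after rescaling. The small heat shock proteins CRYAB, HSPB8 and HSPB1 rose, to 16.96, 15.4 and 1042 FPKM in siAP2C cells, against 3.61, 4.30 and 707 FPKM in siNT cells. HSPB7, of the same family, fell to 10.4 FPKM in siAP2C cells, against 55.2 FPKM in siNT cells. HSPA1A, with 33.1 FPKM in siAP2C cells, against 48.3 FPKM in siNT cells, and HSPA1B, with 29.3 FPKM in siAP2C cells, against 41.2 FPKM in siNT cells, code for the same inducible HSP70, and reads between them cannot be assigned.

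Genes of iron handling and of the redox response went both ways. Of 14 iron handling genes 6 rose and 3 fell, or 42.9% and 21.4%, against 12.5% and 20.7% of all genes. Their median was 0.23. Both ferritin chains, which store iron, rose: FTH1 to 903 FPKM in siAP2C cells, against 485 FPKM in siNT cells, and FTL to 413 FPKM in siAP2C cells, against 184 FPKM in siNT cells. LCN2, lipocalin 2, which binds iron carriers of bacteria, had 371 FPKM in siAP2C cells, against 90.7 FPKM in siNT cells. TFRC, the receptor that brings iron in, fell to 271 FPKM in siAP2C cells, against 324 FPKM in siNT cells. Its q was 0.0390 in the authors' deposited table, so this fall did not hold at q under 0.01. Of 35 NRF2 and redox genes 12 rose and 8 fell, or 34.3% and 22.9%, against 12.5% and 20.7% of all genes. Their median was 0.05. The rises included HMOX1, heme oxygenase, with 24.9 FPKM in siAP2C cells, against 13.2 FPKM in siNT cells, TXNRD1, thioredoxin reductase, with 439.7 FPKM in siAP2C cells, against 251 FPKM in siNT cells, and GCLC, of glutathione synthesis, with 19.99 FPKM in siAP2C cells, against 11.6 FPKM in siNT cells. The falls included GSTP1, a glutathione transferase, with 11.3 FPKM in siAP2C cells, against 21.2 FPKM in siNT cells, and PRDX3, the mitochondrial peroxiredoxin, with 198 FPKM in siAP2C cells, against 318 FPKM in siNT cells. NFE2L2, the gene of NRF2, was at 64.8 FPKM in siAP2C cells and 41.8 FPKM in siNT cells and was not called. The element TGANNNNGC (GCNNNNTCA on the other strand) was in 4 of the 7 promoters available for members that rose and in 12 of the 16 for the other tested members, against 43.5% of all 8057, so it did not mark the members that rose. Of 43 autophagy and lysosome genes 10 rose and 8 fell, or 23.3% and 18.6%, against 12.5% and 20.7% of all genes. The median of -0.09 was 0.03 after rescaling. SQSTM1, the autophagy receptor p62, rose to 454 FPKM in siAP2C cells, against 203 FPKM in siNT cells, while LAMP1, a lysosomal membrane protein, fell to 99.0 FPKM in siAP2C cells, against 200.3 FPKM in siNT cells, and CTSC, a lysosomal protease, to 33.3 FPKM in siAP2C cells, against 74.6 FPKM in siNT cells.

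Of 31 apoptosis regulators 10 rose and 4 fell, or 32.3% and 12.9%, against 12.5% and 20.7% of all genes. The BH3-only genes, whose proteins set off apoptosis by binding BCL2 relatives, had PMAIP1 at 60.6 FPKM in siAP2C cells, against 10.3 FPKM in siNT cells, BMF at 51.7 FPKM in siAP2C cells, against 18.7 FPKM in siNT cells, and BBC3, the gene of PUMA, at 19.3 FPKM in siAP2C cells, against 10.4 FPKM in siNT cells. BCL2L11, the gene of BIM, was at 9.49 FPKM in siAP2C cells and 9.24 FPKM in siNT cells without a call. Protective genes rose too, MCL1 to 242 FPKM in siAP2C cells, against 148 FPKM in siNT cells, and BIRC3 to 7.65 FPKM in siAP2C cells, against 2.24 FPKM in siNT cells. BIRC5, survivin, which also acts in mitosis, fell to 32.9 FPKM in siAP2C cells, against 52.0 FPKM in siNT cells. GADD45A, induced by DNA damage, had 43.5 FPKM in siAP2C cells, against 18.5 FPKM in siNT cells, and MDM2, a ubiquitin ligase, fell to 12.9999 FPKM in siAP2C cells, against 17.5 FPKM in siNT cells.

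**Figure D5:**
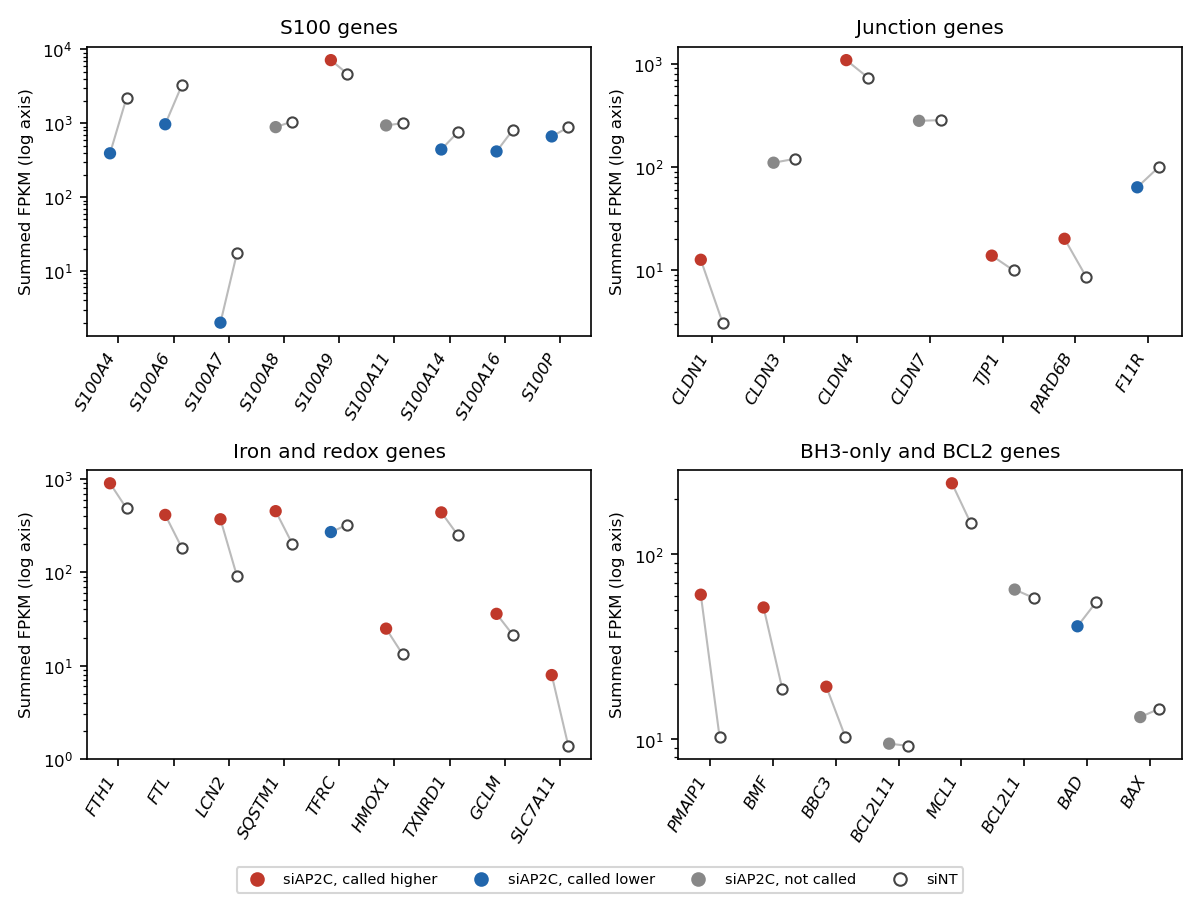
Summed FPKM (vertical log axis) of single genes in 4 groups, with siAP2C on the left (filled, red called higher, blue called lower, grey not called) and siNT on the right (open), 1 pooled value per group. S100A4, S100A6 and S100A7 lie lower and S100A9 higher in siAP2C cells, and FTH1, FTL, LCN2 and PMAIP1 lie higher.

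Brakes of growth factor signalling and immediate early genes rose more often than they fell. Of 16 tested MAP kinase feedback genes 8 (50%, against 12.5% of all genes) rose and 1 fell, with a median of 0.26. DUSP10, a phosphatase of JNK and p38, had 5.04 FPKM in siAP2C cells, against 0.649 FPKM in siNT cells, DUSP5, a phosphatase of ERK, 12.2 FPKM in siAP2C cells, against 4.22 FPKM in siNT cells, and SPRED1, an inhibitor of RAS signalling, 4.61 FPKM in siAP2C cells, against 2.08 FPKM in siNT cells. DUSP4 was at 37.8 FPKM in siAP2C cells and 36.5 FPKM in siNT cells and SPRY4 at 5.34 FPKM in siAP2C cells and 4.49 FPKM in siNT cells, neither called. The AP-1 and immediate early list had 9 rises and 3 falls among 24 tested genes. JUNB, a subunit of AP-1, rose to 135 FPKM in siAP2C cells, against 66.9 FPKM in siNT cells, and ZFP36, which degrades messages of cytokines, to 21.2 FPKM in siAP2C cells, against 12.2 FPKM in siNT cells. PHLDA1 had 14.5 FPKM in siAP2C cells, against 2.15 FPKM in siNT cells, and its relative PHLDA2 fell to 23.6 FPKM in siAP2C cells, against 44.2 FPKM in siNT cells. FOS and EGR1 were at 4.66 and 13.3 FPKM in siAP2C cells and 3.32 and 11.8 FPKM in siNT cells, and neither was called.

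Target genes of YAP and TEAD, the coactivator and the DNA-binding factors at the end of the Hippo pathway, rose in 10 of 18 cases. That was 55.6%, against 12.5% of all genes. In the same list 1 fell, and the median was 0.50. CCN2 and CCN1, matricellular proteins that are their usual readouts, rose to 104 and 99.2 FPKM in siAP2C cells, against 10.8 and 52.2 FPKM in siNT cells. NT5E, the ecto-nucleotidase CD73, had 98.1 FPKM in siAP2C cells, against 20.6 FPKM in siNT cells, and TGFB2, a TGF-beta ligand, 7.26 FPKM in siAP2C cells, against 2.17 FPKM in siNT cells. AMOTL2, a junction protein, was at 70.3 FPKM in siAP2C cells and 46.2 FPKM in siNT cells and AJUBA at 21.6 FPKM in siAP2C cells and 18.6 FPKM in siNT cells, neither called, and F3, tissue factor, fell to 17.3 FPKM in siAP2C cells, against 23.3 FPKM in siNT cells. The TEAD element GGAATG, searched on both strands and chosen with the values known, was in 5 of the 8 promoters available for members that rose and in 0 of the 5 for the other tested members, against 10.3% of all 8057 promoters of tested genes. CCN2 is shown because its promoter (RefSeq, GRCh38.p14, chr6:131951323-131951622, minus strand) holds 3 matches, in capitals.
CCN2: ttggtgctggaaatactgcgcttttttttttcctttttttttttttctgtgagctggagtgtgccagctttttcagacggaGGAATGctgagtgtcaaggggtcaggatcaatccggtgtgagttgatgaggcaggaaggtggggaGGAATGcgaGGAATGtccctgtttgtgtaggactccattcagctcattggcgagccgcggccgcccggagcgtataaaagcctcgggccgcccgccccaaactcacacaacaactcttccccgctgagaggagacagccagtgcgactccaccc

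Ligands of the TGF-beta family moved apart. Of 32 genes of TGF-beta and BMP signalling 9 rose and 8 fell. TGFB2 and GDF15 were among the rises, whereas BMP7 and TGFB3, with 23.4 FPKM in siAP2C cells, against 60.3 FPKM in siNT cells, fell. SMAD3, a signal transducer of TGF-beta receptors, rose to 14.4 FPKM in siAP2C cells, against 6.88 FPKM in siNT cells. SKIL, an inhibitor of SMAD proteins, had 62.1 FPKM in siAP2C cells, against 29.5 FPKM in siNT cells, and PMEPA1, an inhibitor in the same pathway, fell to 23.1 FPKM in siAP2C cells, against 67.2 FPKM in siNT cells. ID2, an inhibitor of basic helix-loop-helix factors, fell to 23.5 FPKM in siAP2C cells, against 58.1 FPKM in siNT cells, while ID1, of the same family, rose to 85.9 FPKM in siAP2C cells, against 57.9 FPKM in siNT cells. In insulin and IGF signalling 6 of 23 rose and 5 fell, or 26.1% and 21.7%, against 12.5% and 20.7% of all genes. IRS1, the receptor's adaptor, had 11.99 FPKM in siAP2C cells, against 5.64 FPKM in siNT cells. AKT1 had 45.6 FPKM in siAP2C cells, against 66.6 FPKM in siNT cells. Of 17 Wnt pathway genes 6 rose and 3 fell, WNT5A, a ligand of the non-canonical branch, with 36.3 FPKM in siAP2C cells, against 14.3 FPKM in siNT cells, and NKD1, a feedback inhibitor, with 2.50 FPKM in siAP2C cells, against 5.07 FPKM in siNT cells. Of 19 Notch pathway genes 5 rose and 3 fell. The ligand JAG1 had 4.65 FPKM in siAP2C cells, against 1.64 FPKM in siNT cells, the target HEY1 2.94 FPKM in siAP2C cells, against 1.348 FPKM in siNT cells, and NRARP, a target that restrains the pathway, fell to 1.55 FPKM in siAP2C cells, against 3.91 FPKM in siNT cells.

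Tight junction genes rose in 8 of 19 cases (42.1%, against 12.5% of all genes) and 1 fell, with a median of 0.27. CLDN1, a sealing claudin, had 12.7 FPKM in siAP2C cells, against 3.12 FPKM in siNT cells, and CLDN4, the most abundant of the list, 1078 FPKM in siAP2C cells, against 730.0 FPKM in siNT cells. PARD6B, of the polarity complex, rose to 20.2 FPKM in siAP2C cells, against 8.60 FPKM in siNT cells. F11R, the adhesion molecule JAM-A, fell to 63.5 FPKM in siAP2C cells, against 100.4 FPKM in siNT cells, while CLDN3 and CLDN7, at 109.9 and 279 FPKM in siAP2C cells and 120.0 and 284 FPKM in siNT cells, were not called. Of 10 desmosome genes 4 rose and 1 fell, with a median of -0.09 that was 0.03 after rescaling. DSG2, a desmosomal cadherin, rose to 64.1 FPKM in siAP2C cells, against 43.8 FPKM in siNT cells, and PKP1, a plakophilin, fell to 1.22 FPKM in siAP2C cells, against 6.98 FPKM in siNT cells. Of 16 cadherin and catenin genes 6 were tested, of which 2, CDH5 and JUP, rose and 0 fell, with a median of 0.17. JUP, plakoglobin, which links both kinds of junction to the cytoskeleton, rose to 374 FPKM in siAP2C cells, against 289 FPKM in siNT cells.

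Among 17 integrins and laminins there were 6 rises and 3 falls. ITGA1 and ITGA5, alpha chains for collagen and fibronectin, rose to 4.56 and 4.59 FPKM in siAP2C cells, against 1.67 and 2.71 FPKM in siNT cells, and ITGB5, a beta chain, fell to 40.0 FPKM in siAP2C cells, against 72.3 FPKM in siNT cells. Of 33 mesenchymal genes and drivers 12 were tested, and 4 rose and 0 fell. FN1, fibronectin, had 24.6 FPKM in siAP2C cells, against 8.58 FPKM in siNT cells, a log2 ratio of 1.52 that was 0.79 for its leading accession alone. VIM, CDH2 and ZEB1, the mesenchymal markers summed above, were untested, at 0.0123, 0.117 and 0.00433 FPKM in siAP2C cells and 0.00980, 0.00513 and 0.0142 FPKM in siNT cells. Among 17 matrix proteases and inhibitors there were 2 rises and 3 falls, or 11.8% and 17.6%, close to the 12.5% and 20.7% of all genes. TIMP2, a metalloproteinase inhibitor, had 319 FPKM in siAP2C cells, against 230.1 FPKM in siNT cells, and MMP15, a membrane-bound metalloproteinase, 35.2 FPKM in siAP2C cells, against 53.5 FPKM in siNT cells. HPSE, heparanase, was at 2.20 FPKM in siAP2C cells and 2.74 FPKM in siNT cells and IGSF9, a cell adhesion molecule, at 4.82 FPKM in siAP2C cells and 5.14 FPKM in siNT cells, neither called.

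In a list named for simple epithelial keratins 2 of 8 tested genes rose and 2 fell, or 25% each, against 12.5% and 20.7% of all genes. The median of -0.08 turned to 0.03 after rescaling. KRT19 fell to 1297 FPKM in siAP2C cells, against 2135 FPKM in siNT cells, and KRT81, a hair keratin expressed in breast lines, to 176 FPKM in siAP2C cells, against 408 FPKM in siNT cells, although its close copy KRT86 makes that value uncertain. Of 11 genes in a list named for basal and stress keratins only 2 were tested, and both fell. KRT4 fell to 45.8 FPKM in siAP2C cells, against 88.5 FPKM in siNT cells, and KRT15 to 5.86 FPKM in siAP2C cells, against 8.05 FPKM in siNT cells. KRT80, counted like KRT81 in the list named for simple epithelia, rose to 166 FPKM in siAP2C cells, against 107 FPKM in siNT cells. The pair KRT8 and KRT18, which form the filaments of simple epithelia, stood at 1939.8 and 1243 FPKM in siAP2C cells and 2137 and 1072 FPKM in siNT cells, without a call. S100 genes, of small calcium-binding proteins, fell in 7 of 12 cases and rose in 1, with a median of -0.72. S100A7, psoriasin, whose promoter is printed above, had 2.003 FPKM in siAP2C cells, against 17.6 FPKM in siNT cells. S100A16 and S100A14 fell to 416 and 442 FPKM in siAP2C cells, against 819 and 759 FPKM in siNT cells. S100A8, which pairs with S100A9 in calprotectin, was at 887 FPKM in siAP2C cells and 1056 FPKM in siNT cells and was not called, although S100A9 rose.

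Luminal transcription factors and their genes went both ways, with 5 of 19 higher and 4 lower. Those are 26.3% and 21.1%, against 12.5% and 20.7% of all genes, so the share of falls was near that of all genes. SPDEF, an ETS factor of secretory and luminal cells, fell to 38.9 FPKM in siAP2C cells, against 151 FPKM in siNT cells, and FOXA1, the pioneer factor of luminal cells, to 45.3 FPKM in siAP2C cells, against 76.8 FPKM in siNT cells. TFF3, a secreted trefoil peptide, had 2.66 FPKM in siAP2C cells, against 7.93 FPKM in siNT cells. KLF5, a Krueppel-like factor of epithelium, rose to 36.2 FPKM in siAP2C cells, against 16.2 FPKM in siNT cells, GATA3, a luminal master regulator, to 7.40 FPKM in siAP2C cells, against 4.03 FPKM in siNT cells, and ELF3, an epithelial ETS factor, to 291 FPKM in siAP2C cells, against 223 FPKM in siNT cells. Of 24 androgen and apocrine genes only 8 were tested, of which 5 fell and 0 rose. Besides SERHL2, TARP and TFF3 these were GGT1, gamma-glutamyltransferase, with 9.28 FPKM in siAP2C cells, against 17.4 FPKM in siNT cells, and FKBP5, a co-chaperone of steroid receptors, with 5.54 FPKM in siAP2C cells, against 8.16 FPKM in siNT cells.

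Several immune genes that epithelial cells express rose. Of 18 NF-kB targets 8 rose and 2 fell, with a median of 0.33. ICAM1, an adhesion molecule for leukocytes, rose to 18.2 FPKM in siAP2C cells, against 7.46 FPKM in siNT cells. NFKBIZ, a nuclear regulator of NF-kB, rose to 5.43 FPKM in siAP2C cells, against 2.12 FPKM in siNT cells. The chemokine CCL2 fell to 5.54 FPKM in siAP2C cells, against 12.2 FPKM in siNT cells. Among 11 antigen presentation genes 6 rose and 0 fell, with a median of 0.50. Only 2 of these rises, TAP2 and ERAP1, held at q under 0.01 in the authors' deposited table. PSMB8, a subunit of the immunoproteasome, had 7.38 FPKM in siAP2C cells, against 4.06 FPKM in siNT cells. TAP1, of the peptide transporter, had 6.63 FPKM in siAP2C cells, against 4.62 FPKM in siNT cells. The q of PSMB8 was 0.0437 and that of TAP1 0.0166 in the authors' deposited table. B2M, the light chain of class I molecules, was at 1189 FPKM in siAP2C cells and 1082 FPKM in siNT cells without a call. Of 26 interferon-stimulated genes 8 rose and 6 fell, or 30.8% and 23.1%, against 12.5% and 20.7% of all genes. IFIT2, an antiviral protein, had 3.95 FPKM in siAP2C cells, against 0.936 FPKM in siNT cells, and IRF1, a transcription factor of this response, 44.04 FPKM in siAP2C cells, against 19.6 FPKM in siNT cells, while ISG20, an exonuclease, fell to 7.23 FPKM in siAP2C cells, against 17.6 FPKM in siNT cells, and USP18, which restrains interferon signalling, to 2.56 FPKM in siAP2C cells, against 4.91 FPKM in siNT cells. Leukocyte markers stood at sums of 2.19 FPKM in siAP2C cells and 0.324 FPKM in siNT cells, nearly all CD14, and their part in these counts was not tested.

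Transcripts of a gene could go opposite ways. Of 220 genes with at least 2 called accessions, 19 had 1 called higher and another called lower. For RBM12, an RNA-binding protein, one transcript stood at 6.23 FPKM in siAP2C cells and 17.6 FPKM in siNT cells (q = 0.0489 in the authors' deposited table) and another at 11.1 FPKM in siAP2C cells and 2.33 FPKM in siNT cells (q = 0.0282 in the authors' deposited table). SF1, a splicing factor, had one at 9.95 FPKM in siAP2C cells and 20.9 FPKM in siNT cells and another at 21.8 FPKM in siAP2C cells and 10.5 FPKM in siNT cells. GZF1, a zinc finger protein, had one at 5.07 FPKM in siAP2C cells and 8.91 FPKM in siNT cells and another at 7.07 FPKM in siAP2C cells and 2.53 FPKM in siNT cells. With q under 0.01 in the authors' deposited table, such genes numbered 5. Levels of single transcripts are estimates in which reads shared between transcripts are divided.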

How the data were processed

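RNA of 3 siAP2C and 3 siNT samples of SKBR3 was sequenced from TruSeq libraries, per the labels' protocols. The submitters' processing notes name Bowtie 0.12.2 and Cuffdiff, and hg19 and GRCh37 as builds. Which version of Cuffdiff ran and whether strand was used are not given in the sources used here. The authors deposited 1 FPKM value per accession and group, samples pooled. The test statistic is a score in the authors' deposited table. Deposited p-value and q-value columns were used unchanged, per the file headers. Adjusting p over the 15184 tested accessions by the Benjamini-Hochberg method gave the deposited q, with 0 calls changed. The smallest p in the authors' deposited table was 5e-05, shared by 1720 accessions. No column holds a single sample, so spread between samples, depth and pairing are unknown and no model was fitted.

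Accessions were joined to symbols through a RefSeq table (GRCh38.p14, names and promoter sequences alone). Of 66321, 853 found no symbol, 124 of them tested. Leading accessions overlapped the GRCh37 gene of their name (GENCODE) in 99.3% of 9878 cases. Of the tested symbols, 6605 had 1 tested accession and 3441 more, where the leading one held 65.1% of the sum in the median. For 9 symbols the leading accession was called and the sum moved the other way, and these count as not called. No pseudocount enters a printed value. Lists, 60 in all with 1337 tested genes, are described by counts of called genes and the median log2 ratio, with no test of a list. Some members and 1 list are not reported here.

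Genes named are TFAP2C and the AP-2 genes, 10 fixed genes (ERBB2, ERBB3, ERBB4, EGFR, CDKN1A, CDH5, IGSF9, HPSE, CCND1 and MYC), the 20 largest rises and falls by log2 ratio at a mean of at least 5 FPKM, the 10 largest in FPKM units, up to 6 called members of a list per direction, members not called that show the range, and up to 5 genes with accessions called in opposite directions. The members and lists were chosen with earlier results of these data known, and the motifs of lists after their values were seen. Calling and the adjustment of p-values were tested on simulated data, and the joining of accessions to symbols was not. Python 3.11.15 with pandas 2.3.3, numpy 2.4.6 and matplotlib 3.10.9 was used. Alternatives were another choice of accession, q under 0.01, a 1.5-fold minimum, minimum levels of 1 and 5 FPKM, adjustment over leading accessions, all accessions summed, rescaled or centred ratios, and pseudocounts of 0.1 and 1.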

Additional observations from a re-analysis of the deposited data

How the results depend on the processing

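The files hold 1 pooled value per group. No paired analysis was possible because no column holds a single sample, and leaving out a sample could not be run for the same reason. Counts of 1254 rises and 2075 falls became 602 and 940 with a 1.5-fold minimum, since that setting drops smaller changes, and ranged from 895 to 1342 rises and 1497 to 2220 falls under the other settings tried. Genes with accessions called in opposite directions numbered 5 at q under 0.01 in the authors' deposited table, against 19. The log2 ratio of FBXL5, a regulator of iron genes that counts among the falls, was 0.026 with all accessions summed, which reverses it. The cause was not tested.

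Lists with a median below 0 numbered 35, or 28 after rescaling or centring. Counts of rises or falls per list, 120 in all, were within 1.5 times in 120 when FPKM was rescaled and in 120 when ratios were centred. Rescaling and centring kept the q of the authors' deposited table. They could thus only turn the direction of a called gene, and do not show how a rerun of the test would call. The counts were within 1.5 times in 117 when any accession could carry the call, and in 99 at q under 0.01. The other 21 counts moved further at that q, and only some of them are given here. At that q in the authors' deposited table, the falls were 7 in DNA repair, 18 in mitochondrial and 8 in cytosolic ribosomal proteins and 3 in insulin signalling. The rises were 2 in antigen presentation, 3 in the Notch pathway, 2 in heat shock proteins and 5 in histones. Of 438 named genes, 20 called values moved over 1.5-fold under 1 setting of pseudocount or summing, and each of the 20 kept its direction. With a pseudocount of 1 the log2 ratio was 3.45 for TGM2, 2.26 for TMC4, -2.72 for IGFL1, 1.91 for SLC7A11, 1.87 for DUSP10, -1.85 for PKP1, -1.11 for CCL28, 1.345 for SLC16A1 and 1.355 for IFIT2. For the leading accession alone it was -4.38 for SERHL2, -2.70 for CYP1A1, -1.46 for HARS1, -1.20 for AKT1, -1.97 for CRELD2, 0.79 for FN1 and -0.72 for TGFB3. With all accessions summed it was -1.79 for CRAT, 1.12 for TGFB2, -0.67 for MRPS11 and 0.24 for PPARA.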

Other observations

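Non-coding and chromatin genes were not described above. Of 289 long non-coding RNA genes tested, 35 rose and 21 fell, with a median log2 ratio of 0.12. As a share, the rises were near the 12.5% of all genes tested, and the falls were below the 20.7%. Among 9477 protein-coding genes 1193 rose and 2011 fell, with a median of -0.10. Besides UCA1, NRAD1 and H19, a few well-known long non-coding RNAs were chosen after their values were seen. MALAT1 rose to 101.5 FPKM in siAP2C cells, against 44.8 FPKM in siNT cells, and NEAT1, the scaffold of paraspeckles, to 696 FPKM in siAP2C cells, against 473 FPKM in siNT cells. DSCAM-AS1, known from luminal breast cancer, fell to 60.5 FPKM in siAP2C cells, against 139.8 FPKM in siNT cells. Of 33 chromatin and DNA methylation genes 5 rose and 6 fell, or 15.2% and 18.2%, near the 12.5% and 20.7% of all genes, and the members named next are single genes. TET2, which oxidises methylated cytosine, rose to 14.1 FPKM in siAP2C cells, against 7.17 FPKM in siNT cells, while DNMT1, the maintenance methyltransferase, fell to 6.15 FPKM in siAP2C cells, against 11.6 FPKM in siNT cells, and its partner UHRF1 to 4.86 FPKM in siAP2C cells, against 7.94 FPKM in siNT cells.

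Replication-dependent histones, whose messages mostly lack a poly(A) tail, rose in 8 of 21 tested cases and fell in 1, with a median of 0.71, although replication genes fell. H2AC6 had 28.9 FPKM in siAP2C cells, against 10.6 FPKM in siNT cells, and H2BC4 6.24 FPKM in siAP2C cells, against 2.03 FPKM in siNT cells. Histone genes are close copies, 36 of 57 listed had no completed test, and the submitters' protocol does not say how messages were selected beyond the kit. CCAAT, searched on both strands, was in 8 of 8 promoters of those that rose and in 8 of 12 of the other tested ones, against 37.7% of all 8057, and was thus frequent in the whole family. Genes of RNA interference, the machinery that the siRNA uses, had 1 rise and 2 falls among 11 tested, or 9.09% and 18.2%, near the shares of all genes, AGO2 standing at 4.55 FPKM in siAP2C cells and 4.36 FPKM in siNT cells without a call. Of 12 circadian clock genes 2 rose and 3 fell, or 16.7% and 25%, against 12.5% and 20.7% of all genes, and 0 rose and 1 fell at q under 0.01 in the authors' deposited table. Single members were NFIL3, a repressor, at 26.1 FPKM in siAP2C cells, against 18.4 FPKM in siNT cells, and PER1, a period gene, at 2.75 FPKM in siAP2C cells, against 4.05 FPKM in siNT cells.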
